A study of Mus musculus with 19 samples.

Results

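The motor and cytoskeleton genes described here are the tubulins, kinesins, cytoplasmic dyneins and myosins, with the microtubule-associated proteins and stathmins that act on the same filaments. Members were all probe sets annotated to 1 gene symbol that begins as a tubulin, kinesin, dynein, myosin, Map or stathmin name does, kinases of the MAP kinase cascade left out. They came to 85 of 8251 genes, read by 115 of the 12488 probe sets on the array. The rule reads names and no expression value, but it was chosen with earlier results of these data known. Mouse cells that express green fluorescent protein under a glial promoter were sorted by flow cytometry at 6 stages of the path from neural crest to Schwann cell. RNA was amplified by repeated in vitro transcription and hybridised to 19 Affymetrix arrays. The earliest group, at E9.5, was neural crest cells of the trunk, and the later groups were sciatic nerve cells from 4 embryonic days (E12, E14, E16 and E18) and from newborns (P0). Each group had 3 arrays except E16, which had 4. All groups carry the same reporter and none is mutant or treated. The labels do not say whether arrays came from separate litters or from pooled embryos, so every p-value measures only the spread between these samples.

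Microtubules are hollow polymers of alpha- and beta-tubulin that grow from a ring containing gamma-tubulin, and structural MAPs stabilise them while stathmins bind free tubulin dimers. Kinesins mostly walk towards the growing ends of microtubules and cytoplasmic dynein towards the anchored ends, so that cargo moves both ways along a process. A separate set of kinesins builds and clears the mitotic spindle and serves cytokinesis, and is made chiefly in dividing cells. Myosins are the motors of actin: bipolar myosin II pulls filaments together, and unconventional myosins carry cargo and membrane. Schwann cell precursors divide and migrate along axons before immature Schwann cells sort and wrap them, which draws on both filament systems.

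Values are dChip model-based expression indices, a linear brightness per probe set that cannot be set against another probe set's. The 25th percentile, 68.5, served as a floor: lower indices were raised to it before log2 was taken, and a probe set was tested if it exceeded the floor on at least 3 arrays. By that rule 93 of the 115 members were tested, of 10414 tested in all. The 22 members left out lay near or under the floor on nearly every array, among them the only probe sets for Map1b, Map2, Map7, Myl2, Myl3 and Myo1e. A member that passed only through a stage where it was high had to differ between stages, so counts over the 93 members describe the tested probe sets alone. Of the 115 probe sets, 17 carry the suffix that marks a family of like sequences, 7 of them among the 15 for alpha- and beta-tubulins, so tubulin values may mix near-identical paralogs.

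The median index per array was 174 to 207, and the lowest rank correlation between 2 arrays of a stage was 0.894 at P0 and 0.928 or more at the other stages. The ratio of 3' to 5' GAPDH control signal, a sign of RNA length, was 4.69 to 7.69 at P0, above the 3.18 to 4.53 at E12. At E9.5 the ratio was 2.33 to 3.41, and at E16 it was 3.84 to 9.12, the highest of the series. The ratio differed with stage: P0 and E12 did not overlap, and E12 and E9.5 overlapped only in part. A call lost with this ratio as a covariate therefore cannot tell RNA length from stage. E18 replicate 3 stood apart from the other E18 arrays for genes of dividing cells. P0 replicate 4 had a median index of 206.9 and a GAPDH ratio of 4.69. The other P0 arrays had medians of 176.4 and 174.5 and ratios of 7.69 and 6.80. Results that rest on E18 replicate 3 or P0 replicate 4 are given with and without them. Of 11 glial marker probe sets, 0 to 3 were at or under the floor on all arrays of a stage. Sox10 had 727 to 3256 and Erbb3 1589 to 5097 on their brighter probe sets, while S100b was under the floor on every array of E9.5 to E16. Of 16 neuronal marker probe sets, 6 or 7 were at or under the floor on all arrays of a stage, Elavl4 and Isl1 at every stage. Of the 10 tested, Gap43, a gene of growing axons and of early glia, and Uchl1 rose at E12 against E9.5 and fell at P0 against E12. Of all tested probe sets, 9.7% rose at the first of these comparisons and 11.8% fell at the second. The list as a whole went both ways at E12 against E9.5, 5 up and 5 down, with a median log2 change of 0.02. At P0 against E12, 7 were up and 3 down, with a median of 0.14. Gap43 had 644 to 891 at E12 and 264 to 314 at E9.5, and 42.8 to 89.3 at P0, and the part of neuronal RNA in the results was not tested. In sorted bulk RNA, fewer cells of a kind and less RNA per cell cannot be told apart.

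Over the 6 stages, 19 of 93 tested members differed by limma's F-test at an adjusted p under 0.05, a share below the 29% of all tested probe sets. Over the 5 nerve stages, 7 members did, against 13.1% of all tested probe sets. Of the 8 mitotic kinesin probe sets, 7 differed over the 6 stages and 4 over the nerve stages. Of the 21 tested probe sets for motors of transport, the kinesins and cytoplasmic dyneins together, 3 differed over the 6 stages and 1 over the nerve stages. None of the 5 alpha-tubulin, 7 stathmin or 11 striated muscle myosin probe sets tested did so.

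At E12 against E9.5, 10 members changed, 7 higher and 3 lower, where the background was 14.1% of all tested probe sets, 9.7% higher and 4.41% lower. At P0 against E12, 12 members changed, 3 higher and 9 lower, where the background was 16.4%, with 4.53% higher and 11.8% lower. On the log2 scale the median change over the members was 0.01 in the earlier comparison and 0.03 in the later, beside 0.01 and -0.02 over all tested probe sets. The members as a whole thus changed no more often than the array did. Both counts rest partly on single arrays: members called were 5 without E9.5 replicate 2 at E12 against E9.5, and 5 without E12 replicate 2 or 16 without P0 replicate 4 at P0 against E12.

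Between neighbouring nerve stages, no member passed limma's adjusted threshold. Of all tested probe sets, 2.09% passed it at E14 against E12, 1.69% at E16 against E14, 0.0768% at E18 against E16 and 0.125% at P0 against E18. At an unadjusted p under 0.05, the members came to 2 of 93 at E14 against E12, where the background at that threshold was 10.9%. At E16 against E14 they came to 6, beside 11.2%, and at E18 against E16 to 8, beside 8.07%. At P0 against E18 they came to 8, beside 11.7%, and 6 of those 8 were mitotic kinesins. These counts lay near or below the shares of the whole array. The adjusted count at P0 against E18 moved with 1 array, since 715 probe sets of the whole array were called without P0 replicate 4, 4 of them members, against 13 with it.

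**Figure D1:**
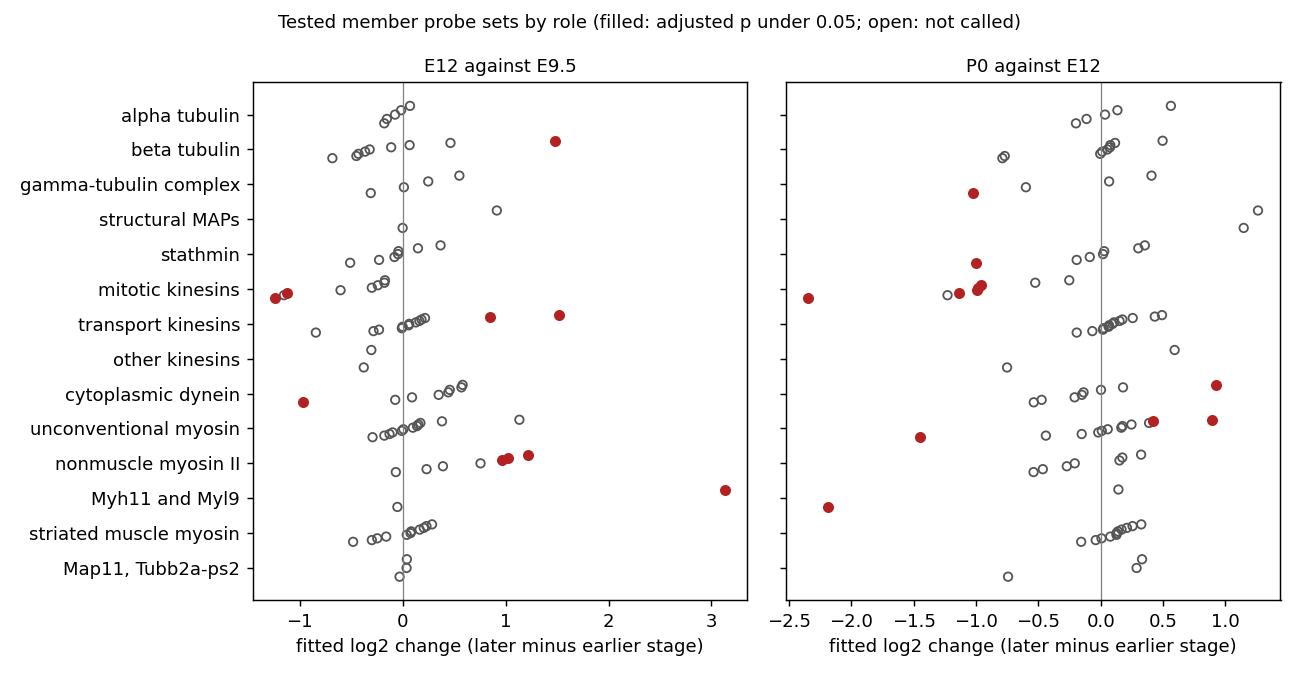
Log2 change of each tested member, by role, in 2 panels, the step into the nerve (E12 over E9.5) and the change within it (P0 over E12); each point is 1 probe set and filled points passed the adjusted threshold. All 8 mitotic kinesin probe sets lie below 0 in both comparisons, while the 21 for transport motors lie on both sides.

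Of the 8 mitotic kinesin probe sets, 5 fell at P0 against E12 and 2 at E12 against E9.5, and none rose. Of all tested probe sets, 11.8% and 4.41% fell in those comparisons. Kif20a (central spindle and cytokinesis), Kif22 (a chromosome-arm motor), Kif23 (a centralspindlin subunit) and Kif4 (a chromosome-bound motor that shortens the midzone) were lower at P0 than at E12, by 1.95-fold to 5.09-fold on the fitted log2 scale, with indices under the floor raised to it. The mean log2 index over the 8 mitotic probe sets was 9.36 ± 0.18 at E9.5, 8.74 ± 0.15 at E12 and 8.78 ± 0.02 at E14 (SD, n = 3 each). It was then 8.89 ± 0.27 at E16 (SD, n = 4), 8.56 ± 0.66 at E18 and 7.68 ± 0.31 at P0 (SD, n = 3 each). Set against the stage before it, the mean moved by -0.63 at E12, 0.05 at E14 and 0.11 at E16, and then by -0.33 at E18 and -0.88 at P0. The mean over the 21 transport probe sets stayed between 8.39 ± 0.04 at E9.5 and 8.61 ± 0.20 at P0.

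**Figure D2:**
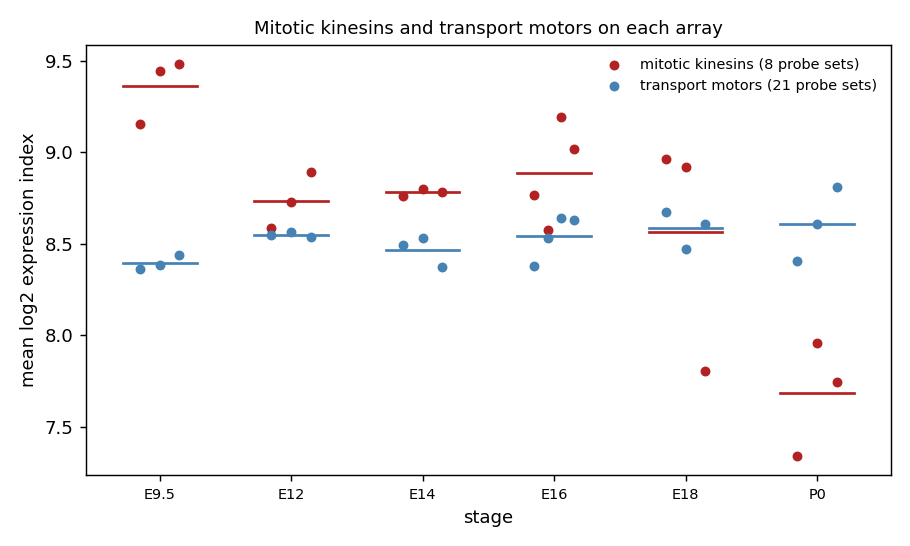
Mean log2 index per array over the 8 mitotic kinesin probe sets and over the 21 transport motor probe sets, by stage; points are arrays and bars are stage means. The mitotic mean is 7.34 to 7.96 on the P0 arrays and 8.58 to 8.89 on the E12 arrays, and 1 E18 array, at 7.80, lies among the P0 values.

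Kif20a, the motor that carries its cargo to the cleavage furrow, is read by a pair of probe sets. The first of them, of the sequence family kind, had indices of 55.3, 261 and 234 at P0, against 728, 919 and 824 at E12. All P0 arrays lay below all E12 arrays and 1 was under the floor. The fitted fall was 5.09-fold (log2 change -2.35 ± 0.36 SE, limma adjusted p = 0.000281). The other, a plain probe set, had 59.4, 21.7 and 45.7 at P0, all under the floor, against 117, 138 and 159 at E12 (at least 1.99-fold lower, limma adjusted p = 0.0199). This probe set had fallen before, since its E9.5 arrays gave 247, 386 and 351 and E12 was 2.36-fold lower (limma adjusted p = 0.00517). That earlier call was lost when values were floored at the 10th percentile instead (adjusted p = 0.0631). The P0 against E12 call of this second probe set was lost in 6 of 27 alternatives, among them leaving out E12 replicate 2 or 4 or P0 replicate 1 or 3 (adjusted p = 0.052 to 0.0763) and a floor at the 40th percentile (adjusted p = 0.704). The GAPDH ratio as a covariate ended that call as well (limma adjusted p = 0.156).

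Kif22, which binds DNA and pushes chromosome arms outward, had 605, 829 and 821 at P0, against 1698, 1778 and 1456 at E12. The groups did not overlap and the fall was 2.20-fold (log2 change -1.14 ± 0.21 SE, limma adjusted p = 0.00132). Kif23, which bundles microtubules of the midzone, had 468, 742 and 504 at P0, against 1188, 1053 and 1086 at E12 (1.98-fold lower, limma adjusted p = 0.0226). Every P0 array was again below every E12 array. Kif4 had 168, 223 and 199.8 at P0, against 319, 439.7 and 393 at E12 (1.95-fold lower, limma adjusted p = 0.0109). Kif22 kept its call in all 27 alternatives. Kif23 lost it in 9, among them leaving out any E12 array or P0 replicate 1 (adjusted p = 0.0535 to 0.0915), and Kif4 in 3, among them leaving out E12 replicate 2 or P0 replicate 1 (adjusted p = 0.057 and 0.0504). The GAPDH ratio as a covariate ended both calls (limma adjusted p = 0.117 for Kif23 and 0.0872 for Kif4). With the lot as a block, the Kif23 call was lost too (limma adjusted p = 0.0552).

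Kif2c, a kinesin that does not walk but takes tubulin off microtubule ends at the centromere, moved at the other end of the series. It had 115, 181 and 216 at E12, against 255, 465 and 391 at E9.5, and the 2 stages did not overlap (2.18-fold lower, limma adjusted p = 0.0387). That call was lost without E9.5 replicate 2 or 3 or E12 replicate 1 or 2 (adjusted p = 0.0769 to 0.195). The GAPDH ratio as a covariate also ended that call (limma adjusted p = 0.154). From E12 on Kif2c had no further call, with a log2 change of -0.25 at P0 against E12 (limma adjusted p = 0.686). Kif11, the tetramer that pushes spindle poles apart, had 63.4, 89.0 and 134 at P0, against 184, 171 and 335 at E12. Those groups did not overlap either, but the spread was wide and the change missed the threshold (log2 change -1.23, limma adjusted p = 0.127). Kifc1, a minus-end motor that focuses spindle poles, was the one mitotic probe set with no call by either F-test, and had 218, 448 and 204 at P0, against 411, 327 and 443 at E12.

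The count of mitotic probe sets called lower at P0 against E12, 5 of 8, moved with the choice of samples and model. It was 2 without E12 replicate 2, 2 without P0 replicate 1, 3 without E12 replicate 4 and 2 with the GAPDH ratio as a covariate, and 6 without E18 replicate 3. All 8 changes were below 0 in the fit of all arrays. Within the lots that the labels give as batches, the difference in mean log2 index was -1.25 in lot 1 and -1.15 in lot 4, beside -1.05 over all arrays. For E12 against E9.5 it was -0.57 in lot 1 and -0.72 in lot 2, beside -0.63 over all arrays. Each within-lot difference given here and below is 1 array minus 1 array, and these arrays also enter the value over all arrays.

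**Figure D3:**
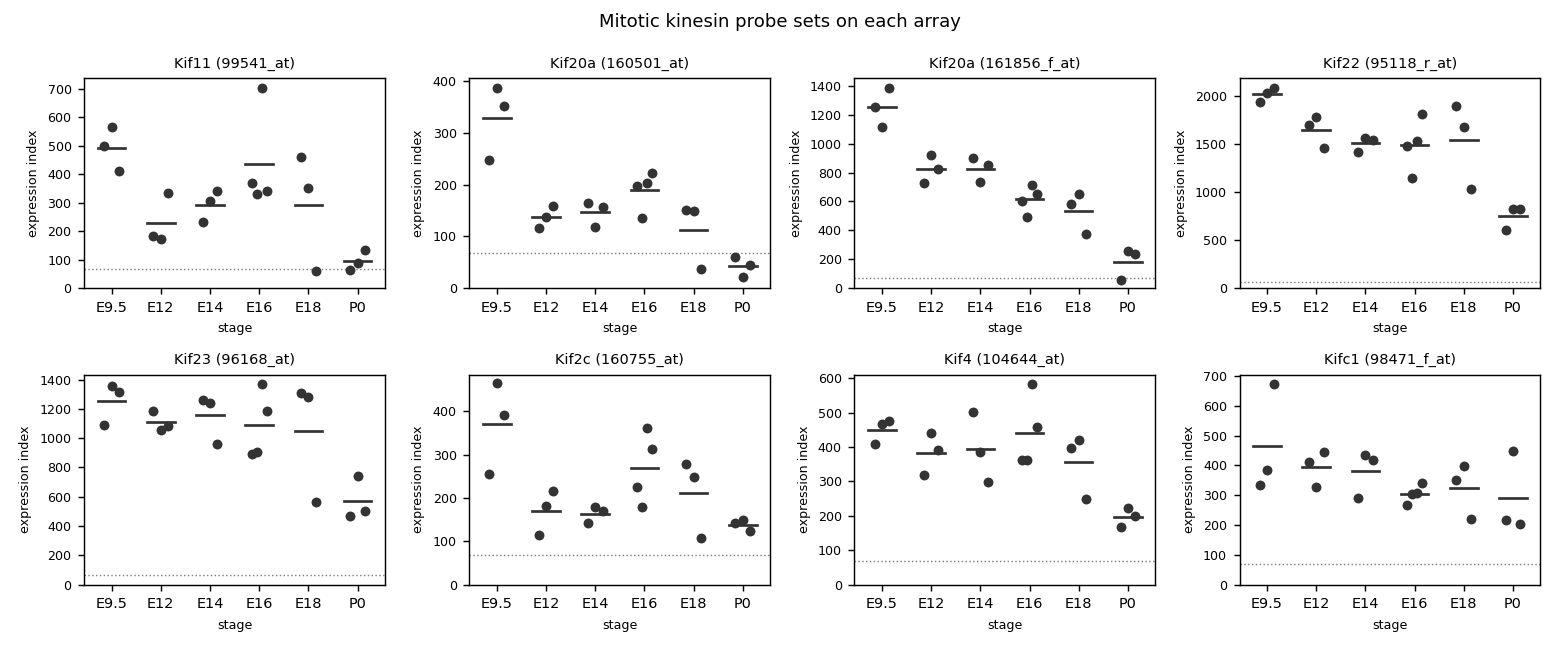
Index of each mitotic kinesin probe set on each of the 19 arrays, by stage, on a linear axis that starts at 0, with the floor as a dotted line; points are arrays and bars are stage means. For Kif22 the P0 arrays sit between 605 and 829, below every array of the other stages.

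No member was called at P0 against E18 in the fit of all arrays, and that count moved with single arrays and with the scaling. E18 replicate 3 gave 58.9 for Kif11, where the other E18 arrays gave 459 and 353 and the P0 arrays 63.4, 89.0 and 134. It gave 1035 for Kif22 beside 1899.6 and 1679, and 565 for Kif23 beside 1306 and 1284. Its mean over the mitotic probe sets, 7.80, lay among the P0 arrays, as did the mean of the spindle partners outside the motor families, 7.63. Its mean over replication and cell cycle genes, 8.62, lay above the P0 arrays, at 8.06 to 8.54, and below the other E18 arrays. Without this array, limma called 6 members at P0 against E18, all but Dync1i1 mitotic kinesins: Kif11 was 4.31-fold lower (adjusted p = 0.0206), Kif22 2.40-fold (adjusted p = 0.00928) and Kif23 2.31-fold (adjusted p = 0.0271), and Kif20a fell on both probe sets (adjusted p = 0.0451 and 0.047). Of the 93 members, 1 was higher and 5 lower in that fit, beside 10 higher and 48 lower of all 10414 tested probe sets. With E18 replicate 3 kept and P0 replicate 4 left out, 4 members were called: Kif20a on its sequence family probe set (adjusted p = 0.00931), Kif22 (adjusted p = 0.0158), Stmn1 (adjusted p = 0.00424) and Tubb5 (adjusted p = 0.0366), all lower at P0. Of all 10414 tested probe sets, 137 were higher and 578 lower in that fit. With all arrays kept, quantile normalization called Kif20a and Kif22 (adjusted p = 0.0397 and 0.0469), and a floor at the 40th percentile called Kif20a (adjusted p = 0.03). Within lot 3, which holds that array, the mitotic mean at P0 was 0.16 above E18, and within lot 1 it was 1.63 below.

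Genes that work beside these motors were taken as lists. Among spindle and cytokinesis partners, 5 of 20 tested probe sets fell at E12 against E9.5 and 12 of 20 at P0 against E12, with a median log2 change of -1.07 in the later comparison. Of all tested probe sets, 4.41% fell in the earlier comparison and 11.8% in the later. Ect2, the exchange factor that starts the cleavage furrow, was 497 ± 116 at P0 and 1546 ± 161 at E12 (SD, n = 3 each), a 3.16-fold fall (limma adjusted p = 0.00608). Aurka, a kinase of the spindle poles, was 3.26-fold lower at P0 (limma adjusted p = 0.00115), and Cenpe, a kinesin of the kinetochore whose symbol lies outside the naming rule, 3.65-fold lower (limma adjusted p = 0.0102). Of 21 probe sets for replication and cell cycle genes, 7 fell at E12 against E9.5 and 9 at P0 against E12, and none rose in either. The shares over all tested probe sets are again 4.41% and 11.8%.

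Promoters of 4 mitotic kinesins are shown because Kif22, Kif23 and Kif4 fell at P0 against E12, Kif11 differed over the 6 stages, and a motif pair is known from cell cycle promoters. The window of Kif2c, which also differed over the 6 stages (limma F-test adjusted p = 0.0352), is not printed. CCAAT is the box bound by NF-Y, and TTTGAA is the core of the cell cycle homology element. Both were searched on both strands in RefSeq windows of GRCm38.p6 that run from 250 bases before to 50 after the start, and no match overlapped another. The windows printed are Kif11 at chr19:37376132-37376431 on the + strand, Kif22 at chr7:127042371-127042670 on the - strand, Kif23 at chr9:61946750-61947049 on the - strand and Kif4 at chrX:100625815-100626114 on the + strand. Each reads 5' to 3' on the gene's strand, with every match in capitals, so that ATTGG and TTCAAA are matches on the opposite strand.
Kif11: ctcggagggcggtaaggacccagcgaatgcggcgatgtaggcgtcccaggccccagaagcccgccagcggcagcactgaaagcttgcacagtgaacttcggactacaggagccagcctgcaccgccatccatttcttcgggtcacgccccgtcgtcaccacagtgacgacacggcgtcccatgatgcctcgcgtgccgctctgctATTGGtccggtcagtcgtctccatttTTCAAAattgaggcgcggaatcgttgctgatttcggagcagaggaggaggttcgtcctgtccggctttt
Kif22: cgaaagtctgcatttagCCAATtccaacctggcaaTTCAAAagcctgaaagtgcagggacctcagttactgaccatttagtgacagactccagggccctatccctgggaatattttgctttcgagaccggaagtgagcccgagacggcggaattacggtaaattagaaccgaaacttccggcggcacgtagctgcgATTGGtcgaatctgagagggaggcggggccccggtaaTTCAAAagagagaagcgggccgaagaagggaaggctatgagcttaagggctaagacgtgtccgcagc
Kif23: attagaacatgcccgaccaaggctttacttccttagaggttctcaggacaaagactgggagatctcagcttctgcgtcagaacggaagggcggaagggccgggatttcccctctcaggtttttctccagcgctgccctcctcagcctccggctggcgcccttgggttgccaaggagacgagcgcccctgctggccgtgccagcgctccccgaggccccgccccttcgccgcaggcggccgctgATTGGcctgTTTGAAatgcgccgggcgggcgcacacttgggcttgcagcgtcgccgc
Kif4: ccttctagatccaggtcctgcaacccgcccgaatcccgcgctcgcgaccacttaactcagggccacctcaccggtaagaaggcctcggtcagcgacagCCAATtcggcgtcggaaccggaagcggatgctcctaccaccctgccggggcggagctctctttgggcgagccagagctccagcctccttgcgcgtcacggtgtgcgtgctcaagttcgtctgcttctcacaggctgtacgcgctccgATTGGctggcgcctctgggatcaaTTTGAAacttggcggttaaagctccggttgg
In Kif11 the first letter of the CCAAT match lay at position -45 from the start and that of the TTTGAA match at -19. Kif22 held each motif at 2 places, and Kif4 held CCAAT at 2. Of the 7 mitotic kinesin genes, 6 had a window: CCAAT was in 5 of 6 (83.3%), Kif2c being the exception, and TTTGAA in all 6. Kifc1, which no test called, held both motifs. Of 18 windows for 14 of the 20 transport motor genes, CCAAT was in 5 (27.8%) and TTTGAA in 1 (5.6%). Over all 32851 windows in the table the shares were 37.4% and 17.9%. These are matches of letters in a window, and binding was not measured.

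Motors of transport were called about as often as the array at the first step. At E12 against E9.5, 2 of 21 tested probe sets rose and 1 fell, beside 9.7% and 4.41% of all tested probe sets, with a median log2 change of 0.13. At P0 against E12, 1 rose, beside 4.53% of all tested probe sets, with a median of 0.06. The difference in mean log2 index at P0 against E12 was -0.14 in lot 1 and 0.27 in lot 4, so its sign was not the same within lots. Over all arrays it was 0.06, and without P0 replicate 4 it was -0.04. The difference at E12 against E9.5 was 0.18 in both lot 1 and lot 2, beside 0.16 over all arrays.

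Kif3c, a subunit that pairs with another kinesin-2 chain, had 259, 259 and 141 at E12, against 32.3, 41.8 and 85.8 at E9.5. The stages did not overlap, and 2 of the E9.5 arrays were under the floor. The fitted rise was 2.86-fold (log2 change 1.52 ± 0.36 SE, limma adjusted p = 0.00811), and a floor set at the 40th percentile ended the call (log2 change 0.71, adjusted p = 0.151). It lay at 98.8, 104 and 79.5 at E14, and at 107, 164 and 362 at P0. Of the other kinesin-2 motor subunits, Kif3a had a log2 change of 0.06 and Kif3b of -0.23 at E12 against E9.5, with no call for either. Kif1c, a kinesin-3 motor of vesicle transport, had 508, 582 and 394 at E12, against 268, 221 and 337 at E9.5 (1.80-fold higher, limma adjusted p = 0.0425). The Kif1c call was lost in 13 of 27 alternatives, with an adjusted p of up to 0.177, 10 of them leaving out a single array. The lot as a block was among the others (limma adjusted p = 0.0774).

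The heavy chains of conventional kinesin gave no call. Kif5b, the ubiquitous heavy chain, had 247, 325 and 446 at E12, against 600.4, 893 and 386 at E9.5, groups that overlap (log2 change -0.84, limma adjusted p = 0.294). Kif1a, a carrier of synaptic vesicle precursors in neurons, passed the F-test over the 6 stages (limma adjusted p = 0.0418) but no single contrast. Its arrays ran from 138 to 164 at E9.5, from 165 to 181 at E12 and from 179 to 292 at P0. Kif2a, a depolymerising kinesin counted with neither motor set, averaged 222 ± 117 at P0 and 345 ± 63.1 at E12 (SD, n = 3 each), with no call (limma adjusted p = 0.263).

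Cytoplasmic dynein showed a rise in 1 intermediate chain. Dync1i1, which links the motor to dynactin, had 696, 1058 and 868 at P0, against 392, 418 and 565 at E12. Every P0 array was above every E12 array (1.90-fold higher, log2 change 0.93 ± 0.23 SE, limma adjusted p = 0.0101), and the F-test over the nerve stages also called it (limma adjusted p = 0.0385). Without E12 replicate 1 or P0 replicate 3 the adjusted p was 0.0514 and 0.0567. Dync1h1, the heavy chain with the motor domain, had 895, 1421 and 2576 at P0, against 1767, 2185 and 2272 at E12, with overlap and no call. Dynll2, a light chain shared with myosin V, had 353, 452 and 555 at E12, against 811, 1004 and 816 at E9.5 on a plain probe set (1.96-fold lower, limma adjusted p = 0.0367). Its other probe set, of the sequence family kind, did not follow (log2 change 0.09, limma adjusted p = 0.885), and the call on the first was lost without any 1 of the E9.5 arrays or E12 replicate 1 or 2 (adjusted p = 0.0686 to 0.169). The GAPDH ratio as a covariate ended that call too (limma adjusted p = 0.158). Among 16 tested probe sets for dynactin and motor adaptors, 2 rose at E12 against E9.5, beside 9.7% of all tested probe sets. Both were for Ndel1, a dynein regulator, by 2.18-fold and 3.36-fold, and its remaining tested probe set was not called. At P0 against E12, Kifap3, the adaptor of kinesin-2, was 3.18-fold lower (limma adjusted p = 0.00375). No other probe set of that list was called there, where 11.8% of all tested probe sets fell.

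No alpha-tubulin was called. Tuba1a, the main alpha-tubulin of the developing nervous system, averaged 11865 ± 799 at P0 and 10823 ± 967 at E12 (SD, n = 3 each), a difference within the spread of the arrays. Of the 9 beta-tubulin probe sets, 1 rose at E12 against E9.5, beside 9.7% of all tested probe sets, and none changed at P0 against E12. That probe set, for Tubb2a, had 1091, 1023 and 882 at E12, against 296, 338 and 455 at E9.5. The stages lay far apart (2.79-fold higher, log2 change 1.48 ± 0.32 SE, limma adjusted p = 0.00488), and all later arrays stayed above all E9.5 arrays. The second Tubb2a probe set gave a log2 change of -0.45 (limma adjusted p = 0.46), so the rise rests on a probe set of the sequence family kind. Tubb5, a beta-tubulin of most dividing cells, had 1441, 2834 and 5163 at P0, against 4467, 4728 and 5148 at E12, with overlap and no call (log2 change -0.79, limma adjusted p = 0.145). Without P0 replicate 4, the array at 5163, its log2 change was -1.24 (adjusted p = 0.00846).

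Tubb3, the beta-tubulin known as a marker of neurons, had 639, 722 and 804 at E12, against 968, 1249 and 1269 at E9.5 on the probe set with its highest level. The groups did not overlap, yet the change missed the threshold (log2 change -0.68, limma adjusted p = 0.17), and at P0 it had 645, 581 and 1014. Tubb6, a beta-tubulin of many tissues, had 3151, 1495 and 2109 at P0, against 1393, 1695 and 1498 at E12, with overlap and no call (limma adjusted p = 0.276).

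The ring complex that starts microtubules held a gene that declined through the series. Tubgcp4, a ring subunit, had 236, 251 and 273 at E9.5, 208, 198 and 207 at E12, and 194, 163 and 172 at E14. It then had 135, 131, 165 and 176 at E16, 127, 135 and 113 at E18, and 80.6, 100.1 and 125 at P0. The P0 arrays lay below all arrays of the first 3 stages. P0 was 2.04-fold lower than E12 (log2 change -1.03 ± 0.16 SE, limma adjusted p = 0.000379), and its F-test over the 6 stages had the smallest p of any tested member (limma adjusted p = 8.9e-05). Its second probe set never exceeded the floor. Tubg1, gamma-tubulin itself, passed the F-test over the 6 stages (limma adjusted p = 0.00599) and had its lowest values at E9.5, at 173 to 237, with 233 to 368 at E12 and 357 to 546 at E14.

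**Figure D4:**
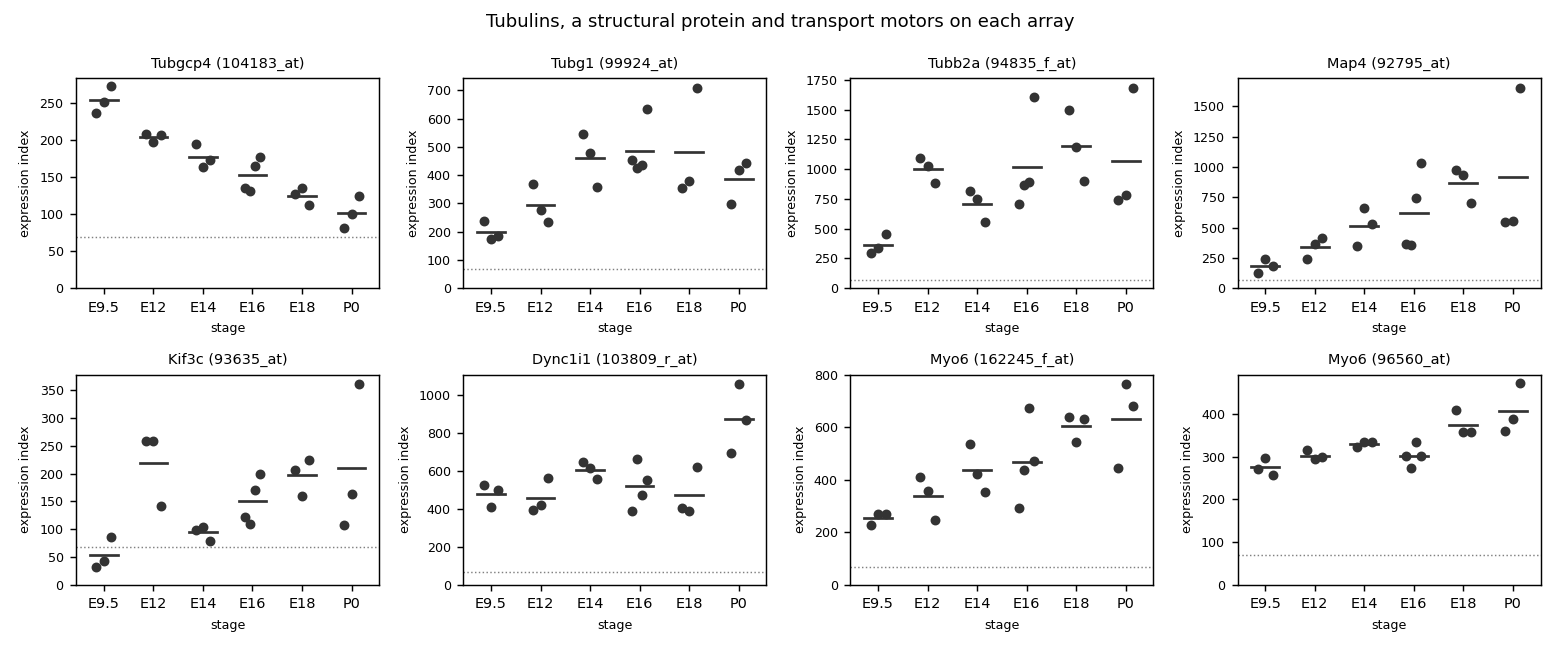
Index of tubulin, ring complex, MAP and motor probe sets named in the text on each array, by stage; points are arrays and bars are stage means. Tubgcp4 is lower at P0, at 80.6 to 125, than at E12, at 198 to 208, while Dync1i1 is higher at P0, at 696 to 1058, than at E12, at 392 to 565.

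Of the 6 probe sets for structural MAPs, 1 for Map4 and 1 for Map6 were tested, and neither was called in any contrast. Map4, the MAP of non-neuronal cells, had 122, 237 and 187 at E9.5, 348, 659 and 528 at E14 and 549, 554 and 1654 at P0. It differed over the 6 stages (limma adjusted p = 0.00658) but not between P0 and E12 (log2 change 1.26, limma adjusted p = 0.0698). That contrast did pass in 5 of 27 alternatives, with an adjusted p of 0.0038 with lots as a block and 0.00017 with the GAPDH ratio as a covariate. Map6, which protects microtubules from cold, was under the floor on every E9.5, E12 and E14 array and had 86.6, 144 and 279.7 at P0. That change of at least 2.22-fold between P0 and E12 did not pass (limma adjusted p = 0.0557). Mapt, the MAP tau, which the naming rule does not catch, rose on a pair of probe sets at P0 against E12, by 1.42-fold and 1.60-fold. Its remaining probe set gave no called rise. Of the 19 tested probe sets for tubulin folding and microtubule ends, which include Mapt, 2 rose and 2 fell. Of all tested probe sets, 4.53% rose and 11.8% fell. The lowest log2 change in the list was -1.405.

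Of 7 tested stathmin probe sets, 1 was called, a fall at P0 against E12, where 11.8% of all tested probe sets fell. Stmn1, which binds tubulin dimers and is made in proliferating cells, had 1067, 1883 and 3391 at P0, against 3680.4, 3422 and 4303 at E12 on its first probe set. The highest P0 array lay just under the lowest E12 array (2.00-fold lower, limma adjusted p = 0.0265). Its other probe set gave a log2 change of -0.09 (limma adjusted p = 0.905). The Stmn1 call was lost without any 1 of the E12 arrays or P0 replicate 1 or 3 (adjusted p = 0.0535 to 0.13). With the GAPDH ratio as a covariate, that call was also lost (limma adjusted p = 0.236). Stmn2, the stathmin of growing neurites, had 835, 562 and 504 at P0, against 451, 495 and 506 at E12 on the probe set with its highest level, with no call.

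Some myosin II probe sets of non-muscle cells rose at the first step. At E12 against E9.5, 3 of 7 tested probe sets rose, for Myh9, the main heavy chain, and Myl12b, a regulatory light chain, and 6 of 7 changes were above 0, with a median log2 change of 0.76. Of all tested probe sets, 9.7% rose at that step. Myh9 had 2718, 2949 and 3015 at E12, against 1117, 1462 and 1748 at E9.5 on the probe set of the sequence family kind (2.04-fold higher, limma adjusted p = 0.00172). On its plain probe set it had 2608, 2851 and 2803 at E12, against 1010.5, 1270.5 and 1303 at E9.5 (2.32-fold higher, limma adjusted p = 0.0321). Neither pair of groups overlapped, but the call on the plain one was lost without any 1 of the 6 arrays compared (adjusted p = 0.0606 to 0.113). Quantile normalization and the GAPDH ratio as a covariate ended that call too (limma adjusted p = 0.0545 and 0.123). At later stages the plain probe set spread from 1369.6 to 4284 within E16, and P0 against E12 had no call on either.

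Myl12b had 1962, 2000.0 and 1619 at E12, against 972, 710.1 and 1243 at E9.5 (1.95-fold higher, limma adjusted p = 0.0486). That call was close to the threshold and was lost in 18 of 27 alternatives, 14 of them leaving out a single array (adjusted p of up to 0.209). The lot as a block also ended that call (limma adjusted p = 0.0547). Myl6, the essential light chain, had 821, 729 and 497 at E12, against 448, 393 and 351 at E9.5, groups without overlap that just missed the threshold (log2 change 0.76, limma adjusted p = 0.051). Myh14, another non-muscle heavy chain, differed over the 6 stages (limma adjusted p = 0.0227), with 238 to 283 at E9.5, 332 to 353 at E12 and 340.2 to 418 at P0, and no single contrast called it.

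Myl9, the regulatory light chain named for smooth muscle, had the largest rise of any member and then fell back. It had 194, 194 and 437 at E9.5, 2249.5, 2844 and 1733 at E12, and 1399.7, 1667 and 1124 at E14. After that it had 986, 807, 249 and 559 at E16, 274, 309.9 and 431 at E18, and 760.0, 379 and 404 at P0. E12 and E14 arrays lay above all arrays of the other stages. E12 was 8.76-fold higher than E9.5 (log2 change 3.13 ± 0.44 SE, limma adjusted p = 0.000111), and P0 was 4.57-fold lower than E12 (log2 change -2.19 ± 0.44 SE, limma adjusted p = 0.00258). Within lots, with 1 array a stage, the log2 change at E12 against E9.5 was 3.54 in lot 1 and 3.87 in lot 2. At P0 against E12 it was -1.57 in lot 1 and -2.10 in lot 4.

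Markers of other cell types were read beside this rise. The smooth muscle heavy chain Myh11 had 41.2, 49.2 and 52.1 at E12, all under the floor, and Acta2, smooth muscle actin, had 66.0, 41.7 and 11.6. Tagln, an actin-binding protein of smooth muscle, had 120, 198 and 105 at E12, against 62.0, 74.1 and 89.3 at E9.5, just short of a call (limma adjusted p = 0.051), and 82.9, 75.7 and 70.7 at P0, a fall from E12 that was called (1.78-fold lower, limma adjusted p = 0.0435). The summed index of the 8 smooth muscle probe sets, which do not include Myl9, was 1533 to 1572 at E12 and 1338 to 2008 at E9.5, and 0 of 6 tested were called by limma, with 1 at an unadjusted p under 0.05. At P0 against E12, 1 of them rose, Smtn, and 1 fell, Tagln, beside 4.53% and 11.8% of all tested probe sets. At E12 against E9.5, 9.7% of all tested probe sets were higher and 4.41% lower. Fibroblast markers summed to 8029 to 9773 at E12 and 2310 to 2429 at E9.5, with 5 of 14 tested higher and 1 lower, and to 23110 to 32540 at P0. Such a sum follows its brightest probe sets and does not describe a whole list. At P0 these were collagens, with means of 7548 for Col1a2, 6207 for Col1a1 and 6096 for Col3a1. Fbln2 averaged 2001 there, while Lum, Dpt and Twist1 averaged 60.9, 66.1 and 22.3, under the floor. Macrophage markers summed to 3336 to 6660 at E12 and 1783 to 2182 at E9.5, with 7 of 12 tested higher, and to 1916 to 2203 at P0. The part of these cells in the Myl9 values was not tested.

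**Figure D5:**
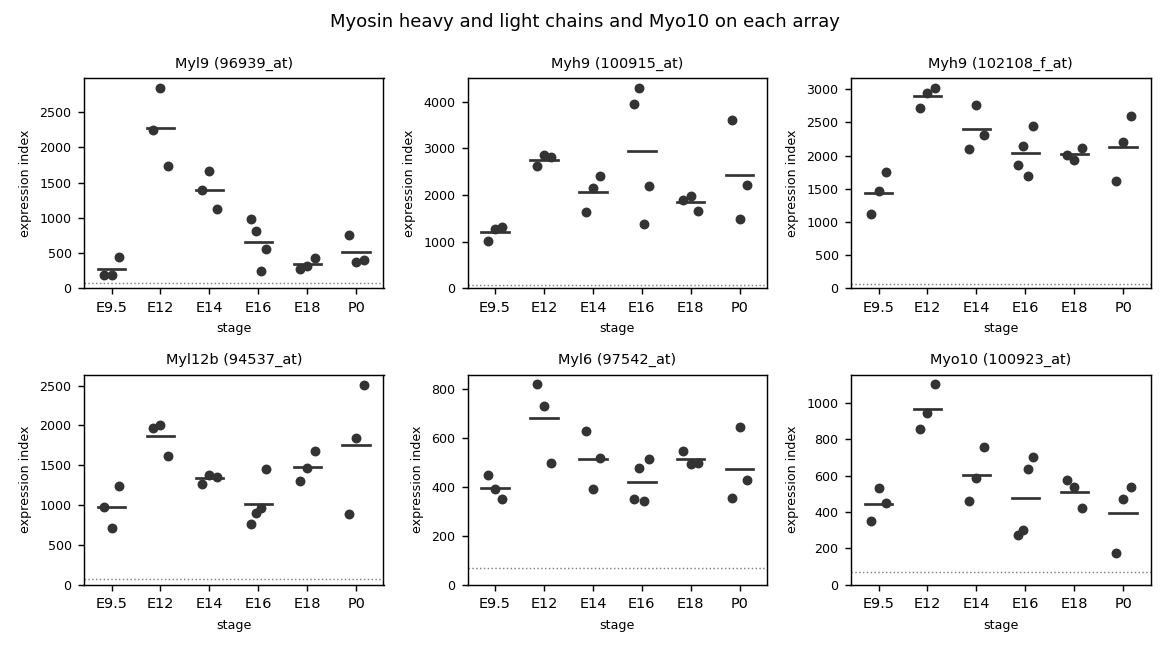
Index of Myl9, Myh9 (both probe sets), Myl12b, Myl6 and Myo10 on each array, by stage; points are arrays and bars are stage means. Myl9 is at 1733 to 2844 at E12 and 194 to 437 at E9.5.

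Of 12 tested probe sets for unconventional myosins, none was called at E12 against E9.5, and at P0 against E12, 2 rose and 1 fell. Of all tested probe sets, 4.53% rose and 11.8% fell in the later comparison. Myo10, the motor that runs to the tips of filopodia, had 175, 471 and 536 at P0, against 859, 945 and 1104 at E12. The groups did not overlap (2.73-fold lower, limma adjusted p = 0.0203), and the adjusted p was 0.108 without P0 replicate 1. The call was also lost without E12 replicate 2 or 4 (limma adjusted p = 0.0573 and 0.0677). With the GAPDH ratio as a covariate the adjusted p was 0.211. The Myo10 rise at E12 against E9.5, where arrays had 352, 535 and 450.1, did not pass (log2 change 1.13, limma adjusted p = 0.0728). Myo6, the myosin that walks towards the pointed end of actin, had 447, 766 and 684 at P0, against 411, 359 and 249 at E12 on a probe set of the sequence family kind (1.85-fold higher, limma adjusted p = 0.0353). On a plain one it had 359, 389 and 472 at P0, against 315, 294 and 299.7 at E12 (1.34-fold higher, limma adjusted p = 0.036). Both Myo6 calls were lost without any 1 of several arrays, at an adjusted p of up to 0.152. P0 replicate 4 was among these arrays (limma adjusted p = 0.0636 on the sequence family probe set and 0.0947 on the plain one). The GAPDH ratio as a covariate ended the sequence family call (limma adjusted p = 0.0578) and not the plain one. Both calls were also lost with the lot as a block (limma adjusted p = 0.0669 and 0.0584) or the replicate number (limma adjusted p = 0.0664 and 0.0619). The remaining Myo6 probe set lay near the floor throughout. Myo1c, a membrane-bound myosin and the member of its role with the highest level, had no call, with 968, 1185 and 1037 at P0, against 802, 976 and 678 at E12.

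Striated muscle myosins served as a reading of muscle in the sort. Of 17 probe sets, 11 were tested and none was called in any contrast or by either F-test, with 1 at an unadjusted p under 0.05 at E12 against E9.5 and 0 at P0 against E12, where the background at that threshold was 25.7% and 29.7%. At E18 against E16, 2 of the 11 had an unadjusted limma p under 0.05, beside 8.07%. The summed index of 18 skeletal muscle marker probe sets was 4260 to 5879 at P0, 4782 to 6267 at E12 and 4546 to 5838 at E9.5. At E16 it was 4791 to 6936. Of the 15 tested, limma called 1 lower at P0 against E12, beside 11.8% of all tested probe sets. The F-test over the 6 stages called 2, beside 29%. At E18 against E16, 5 of the 15 had an unadjusted p under 0.05.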

How the data were processed

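Per the labels, RNA of sorted cells was amplified by repeated in vitro transcription, hybridised to Affymetrix arrays and scanned with MAS software. The deposited intensity values are model-based expression indices that the authors computed with dChip after smoothing-spline normalization, per the labels; no deposited column was left unmapped (unused value columns: 0). The 66 control probe sets were left out. Indices were floored at the 25th percentile (68.5), turned to log2, and kept where above the floor on at least 3 arrays. limma 3.58.1 in R 4.3.3 fitted 1 mean per stage over all 19 arrays (13 residual degrees of freedom), with Benjamini-Hochberg adjustment over 10414 probe sets and a threshold of 0.05. The fit was tested on simulated data. Gene names come from the platform annotation, checked against RefSeq: 85 of 85 genes were found. The number of arrays limits the precision.

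Alternatives were a floor at the 10th or 40th percentile, quantile normalization, no filter, the replicate number or the lot as a block, the GAPDH 3'/5' ratio as a covariate and each array left out; leaving out the lot 1 arrays of E16 and P0 was added after seeing the data. Replicate numbers did not pair samples: residuals of same-numbered arrays correlated at a mean of 0.02 over 38 pairs, -0.38 to 0.71. Probe sets given in full were, in each role, the probe set with the highest mean level and up to 3 with the smallest F-test p among those called, and in each contrast up to 5 rises and 5 falls, with up to 4 from each outside list. All called members are named. The members and lists were chosen with earlier results of these data known.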

Additional observations from a re-analysis of the deposited data

Results flagged for a closer look

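Among 32 probe sets and 16 role means examined at the stage with 4 arrays, 2 had an array far from the others of E16 by Dixon's ratio, which flags about 1 group in 20 by chance. Tubg1 had 453, 425, 437 and 633 at E16, a ratio of 0.862. The mean log2 index of the beta-tubulins at E16 had a ratio of 0.854, with replicate 4 at 9.78 and the lowest array at 9.18.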

How the results depend on the processing

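No called result changed direction. The transport mean at P0 against E12, a difference of 0.0583 with no test, was -0.0439 without P0 replicate 4 and 0.161 without P0 replicate 1. The sequence family probe set of Kif20a, Kif22, Tubgcp4 and Myl9 at P0 against E12, and Myl9, and the sequence family probe sets of Tubb2a and Myh9 at E12 against E9.5, kept their calls in all 27 alternatives. For E12 against E9.5, members called were 6 with no filter on low values and within 1.5 times in the other alternatives that keep all arrays of both stages. For P0 against E18, members called were 1 with the floor at the 40th percentile and 2 with quantile normalization, beside 0, and probe sets called in all were 56 with quantile normalization, 7 with no filter, 40 with the replicate block and 8 without the lot 1 arrays, beside 13. For E18 against E16, probe sets called in all were 3 with the floor at the 40th percentile and 5 with the replicate block or with the lot block, beside 8. With the GAPDH covariate, 1 member was called at E14 against E12 and 272 probe sets at E16 against E14, beside 0 and 176. Without the lot 1 arrays of E16 and P0, 2 members were called at E16 against E14, beside 0. Members called over the nerve stages were 13 with quantile normalization and 12 without the lot 1 arrays, beside 7. The difference in the transport mean at E12 against E9.5 was 0.0615 with quantile normalization and 0.2191 with 1 probe set per gene, beside 0.156. In each case the cause was not tested. Quantile normalization called 6 members higher and 5 lower at E12 against E9.5 and 6 higher and 8 lower at P0 against E12, beside 7 and 3, and 3 and 9, and the GAPDH covariate called 9 higher and 1 lower, and 4 higher and 4 lower.

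With 1 array left out, E12 against E9.5 called 5 to 13 members and 973 to 1751 probe sets in all, E14 against E12 called 0 to 1 and 128 to 283, E16 against E14 called 0 to 1 and 107 to 230, E18 against E16 called 0 members and 4 to 16, P0 against E18 called 0 to 6 and 2 to 715, and P0 against E12 called 5 to 16 and 1064 to 2794. Members called were 15 to 24 over the 6 stages and 6 to 11 over the nerve stages. The replicate block did not pair arrays and gave 8 members at E12 against E9.5 and 11 at P0 against E12, beside 10 and 12; it added the Map4 call at P0 against E12 (adjusted p = 0.0126). With 3 or 4 arrays a stage and values at the floor, small changes of dim probe sets were not detectable.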
